A study of Mus musculus with 9 samples.

Results

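Intraepithelial lymphocytes (IELs) are T cells that sit between the epithelial cells of the gut. The 10 IEL genes examined here were Cd3e, Cd3g, Cd8a, Gzma, Gzmb, Itgae, Ccl5, Ptprc, Cd53 and Itgb2. They were chosen by symbol, and all 10 were found among the 35013 gene symbols of each deposited table. Bulk RNA-Seq was performed on 3 populations sorted from the small intestine of NFKO mice aged 4 to 6 weeks, with 3 libraries of each and 9 in all. Every population came from the Neurog3Cre-FoxO1 f/f; Rosa26tdtomato genotype, so that Tomato marks cells in which a Cre driven by Neurog3 has acted, and the same Cre deletes FoxO1 in those cells. No group with intact FoxO1 in its Tomato+ cells was analysed here. CD24negTomato+ and CD24+Tomato+ cells were each compared with the Tomatoneg cells, which did not carry the reporter signal. Cells were stained for CD24 and Epcam before the sort, and the methods name no antibody against the leukocyte antigen CD45 for it. Whether a library was made from 1 mouse or from pooled mice is not given in the sources used here, so P values measure the spread between libraries.

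Most IELs of the mouse small intestine are CD8-bearing T cells, many with the CD8 alpha homodimer and a gamma delta T cell receptor. They are held in the epithelium by integrin alpha E beta 7, which binds E-cadherin on epithelial cells, and they carry preformed granzymes. Butyrophilin-like proteins, CCL25, IL-15 and the MHC-like molecule encoded by H2-T3 are made by the epithelium and are known to bear on IEL recruitment, survival or activation. T cells do not derive from Neurog3 progenitors, and the labels call all sorted cells primary epithelial cells.

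The 10 genes lie on 8 chromosomes in the GENCODE M21 annotation of GRCm38. Cd3g (chr9:44969572-44980431) and Cd3e (chr9:44998740-45009627) are 18308 bases apart on the minus strand, with Cd3d between them. Cd8a is at chr6:71373427-71379173, Gzma at chr13:113093825-113100981 and Gzmb at chr14:56258838-56262260. Itgae (chr11:73090583-73147446) and Ccl5 (chr11:83525778-83530518) share a chromosome. Ptprc is at chr1:138062861-138175708, Cd53 at chr3:106759921-106790149 and Itgb2 at chr10:77530252-77565708. Ptprc, Cd3e and Itgae overlap other annotated genes. Of each gene's transcript sequence, 0 to 2.72% of 31-base words also occur in transcripts of another gene, the highest share being that of Cd3e. For Gzmb it was 1.35%, with Gzmc.

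Promoters are shown for the 2 granzyme genes and the neighbouring Cd3e and Cd3g genes, because each pair encodes proteins of one type or one complex and had similar fold changes in these libraries. Each run is the 250 bases before the RefSeq start site, 5′ to 3′ on the coding strand (GRCm38.p6). Capitals mark TGTGGT, a sequence bound by RUNX factors, and AGGAAG, which holds the core bound by ETS factors, on either strand. The windows are chr14:56262335-56262584 for Gzmb, chr13:113100982-113101231 for Gzma, chr9:45009612-45009861 for Cd3e and chr9:44980432-44980681 for Cd3g, all on the minus strand.
Gzmb: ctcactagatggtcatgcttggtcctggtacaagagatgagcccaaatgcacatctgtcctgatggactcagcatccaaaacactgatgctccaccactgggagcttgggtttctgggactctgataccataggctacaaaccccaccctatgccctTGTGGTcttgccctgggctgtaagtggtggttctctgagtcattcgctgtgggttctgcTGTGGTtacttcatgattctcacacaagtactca
Gzma: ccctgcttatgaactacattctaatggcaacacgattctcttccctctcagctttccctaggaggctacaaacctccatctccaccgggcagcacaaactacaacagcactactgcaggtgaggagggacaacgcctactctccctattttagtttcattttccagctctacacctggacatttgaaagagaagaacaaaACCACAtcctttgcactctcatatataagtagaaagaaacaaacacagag
Cd3e: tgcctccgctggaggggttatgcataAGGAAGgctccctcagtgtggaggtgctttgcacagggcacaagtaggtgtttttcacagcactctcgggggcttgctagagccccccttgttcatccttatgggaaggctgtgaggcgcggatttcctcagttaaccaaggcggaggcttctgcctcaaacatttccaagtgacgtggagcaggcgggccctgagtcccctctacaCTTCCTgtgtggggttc
Cd3g: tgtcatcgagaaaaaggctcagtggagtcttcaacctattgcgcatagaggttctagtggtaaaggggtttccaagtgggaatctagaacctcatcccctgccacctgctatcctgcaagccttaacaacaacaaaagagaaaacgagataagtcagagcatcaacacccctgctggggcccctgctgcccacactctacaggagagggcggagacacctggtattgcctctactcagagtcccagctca

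RefSeq promoters were matched for 7 of the 10 genes, all but Itgae, Ccl5 and Itgb2. TGTGGT was found in 3 of the 7 (Gzma, Gzmb and Cd53), against 14% of all 32851 promoter windows of that length. AGGAAG was found in 2 (Ptprc and Cd3e), against 29.5%. The E-box CAGCTG was in none of the 7, against 13.0%, and TCACAC, part of a T-box element, was in Gzmb alone, against 12.3%. None of these 4 letter strings overlaps another. No binding was measured, and a match describes only the letters in these windows.

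The libraries differed in depth and in quality. Depth was estimated by taking the most common low value of a library as 1 read, and the estimates were 29953097 to 37138914 reads for CD24negTomato+ libraries, from 27723742 up to 39240059 for the CD24+Tomato+ ones, and 19158348 to 24373149 for Tomatoneg. A level of 3 reads then corresponds to a normalized count of 2.10 to 2.92 in Tomato+ and 3.23 to 4.29 in Tomatoneg libraries, and this floor covers counting error only. Tomatoneg replicate 1 stood apart: it had 13025 genes above 0, against 16008 and 15644 in the other Tomatoneg libraries, and across genes it correlated with them at r = 0.85 and 0.82, while they correlated with each other at 0.92. Of all normalized counts, mitochondrial genes took 10.5% to 15.8% in the CD24negTomato+ libraries, against 6.94% to 8.51% in Tomatoneg and 3.44% to 6.90% in the CD24+Tomato+ libraries. Foxo1, the deleted gene, was at 467, 274 and 371 in CD24negTomato+ against 695, 518 and 424 in Tomatoneg libraries, so that the groups overlapped, and at 319, 193 and 201 in CD24+Tomato+ against 748, 529 and 444. Its log2 fold change did not pass the test in either table (adjusted P = 0.427 and 0.0579; the latter was 0.0219 with the replicate number as a block). Reads from outside the deleted exons would still be counted, so this does not measure deletion. Epcam was between 20915 and 37673 in all 9 libraries, and Cd24a was 993 to 2054 in CD24negTomato+ against 25857 to 30949 in CD24+Tomato+ libraries. Tomatoneg libraries lay between them, at 2944 to 5914 over both tables. Neurog3 was at 14.6, 19.6 and 41.2 in CD24negTomato+ against 80.2, 123 and 147 in Tomatoneg libraries (limma, adjusted P = 0.126). It was at 1319, 1345 and 1364 in CD24+Tomato+ against 102, 149 and 182 (limma, adjusted P = 0.00231).

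IEL genes were lower in both Tomato+ populations, and for 7 of them the ratio of group means to Tomatoneg fell within a narrow range. The mean normalized counts of Cd3e, Cd3g, Cd8a, Gzma, Gzmb, Itgae and Ccl5 in Tomatoneg were 6.59 to 9.67 times those in CD24negTomato+ libraries and 12.4 to 19.5 times those in CD24+Tomato+ libraries. Itgb2 lay above these ranges, at 20.3 and 44.7 times, and Ptprc below them, at 2.75 and 2.07 times. Cd53 was at 7.78 times in the CD24negTomato+ table. In the other table it was at least 30.3 times, as all CD24+Tomato+ libraries were under the level of 3 reads. The ratios of single pairs of libraries, given below, spread more widely than these ratios of means. In sorted bulk RNA, fewer IELs and less of these RNAs per IEL cannot be told apart. The part of other leukocytes in these values was not tested. All 10 genes were lower in all 3 same-numbered pairs of libraries in both tables, where 23.6% (CD24negTomato+) and 24.1% (CD24+Tomato+) of all genes tested were.

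**Figure D1:**
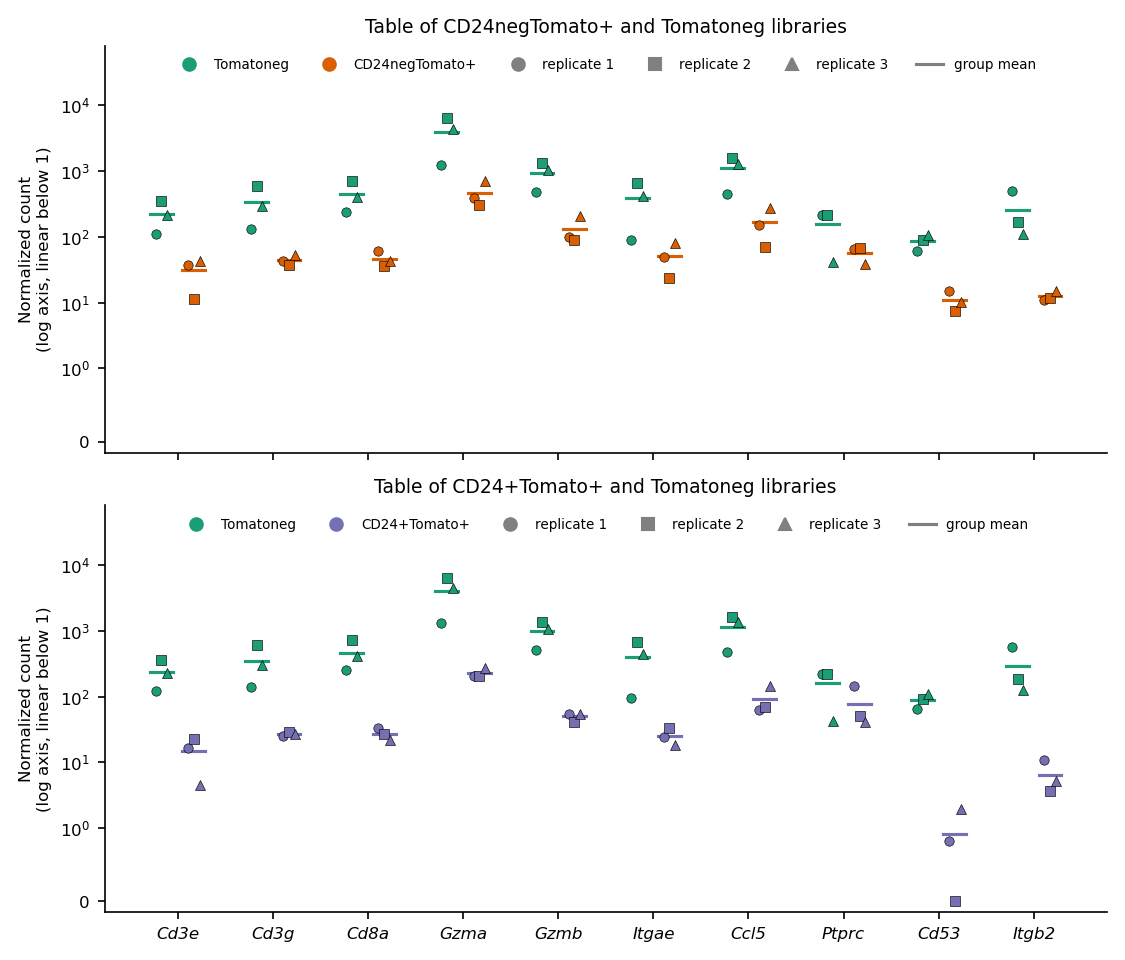
Normalized counts of the 10 IEL genes (log vertical axis, linear below 1) in each library of the CD24negTomato+ table (top) and the CD24+Tomato+ table (bottom), with symbols for replicates and lines for group means. In both tables the groups are separate for every gene except Ptprc, and Tomatoneg replicate 1 (circles) is the lowest Tomatoneg library for 8 of the 10 genes but the highest for Itgb2.

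By limma, 3 of the 10 genes passed an adjusted P of 0.05 as lower in CD24negTomato+ cells (Cd8a, Gzmb and Itgb2), against 0.32% of the 13420 genes tested. With the replicate number as a block, 6 passed, the others being Cd3g, Gzma and Ccl5, against 2.96% of genes. As lower in CD24+Tomato+ cells 9 of the 10 passed, all but Ptprc, against 4.89% of 13874 genes, and the same 9 with the block, against 9.95%. None was higher in either comparison by this test, where 0.999% and 8.02% of all genes were, and none was higher at an unadjusted P under 0.05. The groups did not overlap for 9 of the 10 genes in each table, where 10.6% and 14.4% of all genes tested were lower without overlap. The median log2 fold change of the 10 genes was -2.83 in CD24negTomato+ and -3.91 in CD24+Tomato+ cells, and over all genes tested it was 0.08 and 0.16. All 10 were tested in both tables, but Cd53 and Itgb2 had means under 10 in CD24+Tomato+ cells and passed the expression filter through the Tomatoneg libraries. The count in CD24negTomato+ cells rested on single libraries: it was 9 without Tomatoneg replicate 1, and 0 without any other single library of that table. Lower calls over all genes moved as well, from 43 to 381 without Tomatoneg replicate 1, and to between 1 and 8 without any other library. The CD24+Tomato+ count was 6, 1 and 5 without CD24+Tomato+ replicate 1, 2 or 3, and 9, 7 and 8 without Tomatoneg replicate 1, 2 or 3. Over all genes the lower calls there went from 678 to 323, 30 and 96, and to 829, 551 and 454, in the same order.

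**Figure D2:**
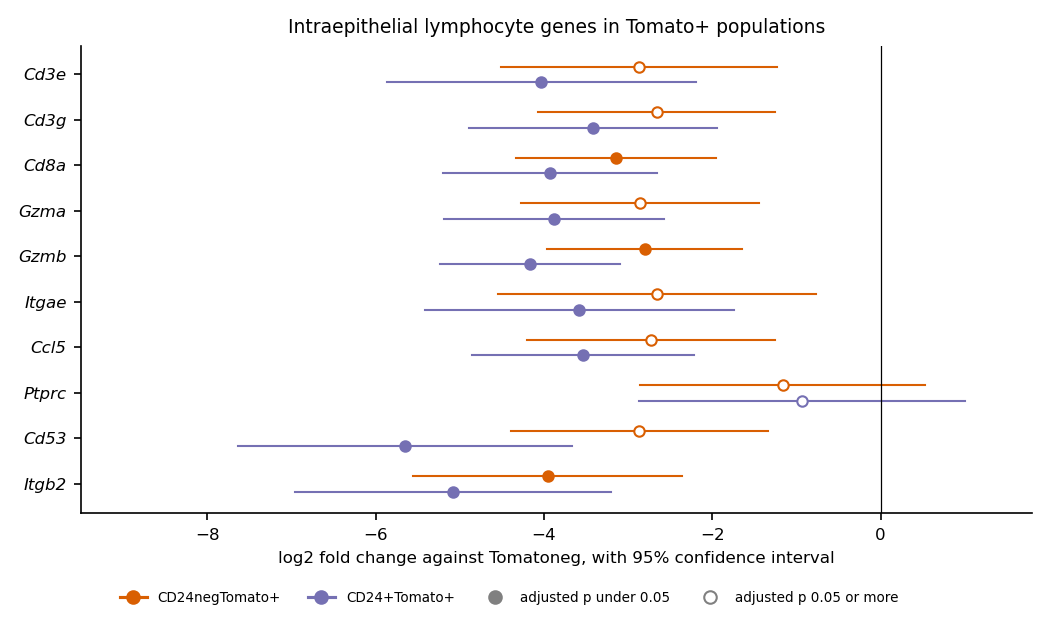
Log2 fold change of each IEL gene against Tomatoneg (horizontal axis), with its 95% confidence interval from limma, in CD24negTomato+ and CD24+Tomato+ cells; filled points have an adjusted P under 0.05. Only the intervals of Ptprc reach 0, and filled points number 3 for CD24negTomato+ and 9 for CD24+Tomato+ cells.

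Cd3e and Cd3g encode the epsilon and gamma chains of CD3, the signalling part of the T cell receptor. Cd3e had normalized counts of 37.6, 11.3 and 43.5 in CD24negTomato+ replicates 1, 2 and 3, and of 110, 346 and 212 in Tomatoneg libraries. In the other table it had 16.6, 22.9 and 4.51 in CD24+Tomato+ and 121, 362 and 228 in Tomatoneg libraries. Every Tomato+ library was thus below every Tomatoneg library, and the log2 fold change was -2.87 (SE 0.70, adjusted P = 0.0963) in CD24negTomato+ and -4.03 (SE 0.78, adjusted P = 0.0196) in CD24+Tomato+ cells. Cd3g was at 42.3, 37.6 and 53.1 in CD24negTomato+ against 131, 594 and 290 in Tomatoneg libraries. It was at 25.0, 29.1 and 27.0 in CD24+Tomato+ libraries, the closest agreement between replicates of any of the genes there, against 142, 609 and 305. Its log2 fold change was -2.66 (SE 0.60, adjusted P = 0.0819; 0.0464 with the replicate block) and -3.42 (SE 0.63, adjusted P = 0.0168). Cd3d, the third CD3 gene of this locus, was at 18.8, 15.4 and 41.5 against 103, 140 and 88.0, and its log2 fold change of -2.19 in CD24negTomato+ cells did not pass (adjusted P = 0.129), while that of -2.62 in CD24+Tomato+ cells did (adjusted P = 0.033).

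Cd8a encodes the CD8 alpha chain, which pairs with itself or with the beta chain. It was at 60.7, 35.3 and 43.5 in CD24negTomato+ and 240, 708 and 402 in Tomatoneg libraries, and at 33.5, 26.6 and 21.8 in CD24+Tomato+ against 255, 716 and 417 in Tomatoneg libraries. Cd8a fell in both populations, by log2 fold changes of -3.14 (SE 0.51, adjusted P = 0.0372) and -3.93 (SE 0.54, adjusted P = 0.00741). Cd8b1, which encodes the beta chain, was listed at 0 in Tomatoneg replicate 1 and at 51.0 and 67.2 in replicates 2 and 3, against 7.47 to 9.16 in CD24negTomato+ libraries, and it did not pass in either table (adjusted P = 0.857 and 0.648). The presence of Cd8a without Cd8b1 in that 1 library was seen after the values were known. A value of 0 there was not particular to Cd8b1. Tbx21 and Gpr18 were also listed at 0 in it, against 47.8 and 34.3, and 48.8 and 76.8, in Tomatoneg replicates 2 and 3.

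The granzymes are serine proteases of cytotoxic granules. Gzma had 389, 308 and 692 normalized counts in CD24negTomato+ and 1206, 6241 and 4272 in Tomatoneg libraries. In the other table it had 202, 206 and 276 in CD24+Tomato+ and 1300, 6395 and 4488 in Tomatoneg libraries. The Tomatoneg libraries spread by 5.18-fold in the first table, more than the Tomato+ libraries, yet the groups did not overlap. The log2 fold change of Gzma was -2.86 (SE 0.61, adjusted P = 0.0703; 0.0302 with the replicate block) and -3.88 (SE 0.56, adjusted P = 0.00853). Gzmb was at 98.5, 90.1 and 207 in CD24negTomato+ against 480, 1301 and 1026 in Tomatoneg libraries, and at 54.4, 40.6 and 54.9 in CD24+Tomato+ against 517, 1332 and 1078. It fell in both populations, by -2.80 (SE 0.50, adjusted P = 0.0477) and -4.17 (SE 0.46, adjusted P = 0.00385). Among the 10 genes in CD24+Tomato+ cells, Gzmb was the one with the smallest adjusted P and the only one that passed without any single library of the table (highest adjusted P = 0.0348).

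Itgae encodes integrin alpha E, and Ccl5 a chemokine that effector T cells make and store. Itgae was at 49.0, 23.7 and 79.8 in CD24negTomato+ and 89.9, 652 and 420 in Tomatoneg libraries, so that the highest Tomato+ and the lowest Tomatoneg library nearly met. It was at 24.5, 32.9 and 18.5 in CD24+Tomato+ against 96.7, 666 and 440 in Tomatoneg libraries. Its log2 fold change was -2.66 (SE 0.81, adjusted P = 0.158) and -3.58 (SE 0.78, adjusted P = 0.0272). Ccl5 was at 153, 70.2 and 272 in CD24negTomato+ against 438, 1559 and 1269 in Tomatoneg libraries, and at 63.5, 69.6 and 142 in CD24+Tomato+ against 473, 1601 and 1336. It changed by -2.73 (SE 0.63, adjusted P = 0.0857; 0.0456 with the replicate block) in CD24negTomato+ cells, which passed with the block and also without Tomatoneg replicate 1 (adjusted P = 0.0277), and fell by 3.53 on the log2 scale (SE 0.56, adjusted P = 0.0105) in CD24+Tomato+ cells. Itgb7, the beta chain that pairs with integrin alpha E, was at 84.6, 106 and 95.3 in CD24negTomato+ against 620, 280 and 446 in Tomatoneg libraries, with no overlap (log2 fold change -2.16, adjusted P = 0.0518; 0.035 with the replicate block). Itgb7 in CD24+Tomato+ cells was at 366, 313 and 265 against 619, 265 and 434, and the groups overlapped (log2 fold change -0.41, adjusted P = 0.543).

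Ptprc, Cd53 and Itgb2 are expressed across leukocytes and are not particular to T cells. Ptprc encodes the CD45 phosphatase. It was at 65.6, 67.0 and 37.9 in CD24negTomato+ and 210, 217 and 42.0 in Tomatoneg libraries, and at 142, 51.0 and 40.5 in CD24+Tomato+ against 222, 218 and 43.2. The third Tomatoneg library was within the Tomato+ range, and in the third pair the Tomato+ libraries held 90.3% and 93.8% of its Ptprc level. Ptprc did not pass in either comparison (log2 fold change -1.16, 95% confidence interval -2.86 to 0.53, adjusted P = 0.451; and -0.93, -2.87 to 0.999, adjusted P = 0.515). Its fold change depended on single libraries: it was -1.94 and -1.71 without Tomatoneg replicate 3, -0.79 and -0.54 without replicate 1, and -0.77 and -0.55 without replicate 2, and in CD24+Tomato+ cells -1.48 without replicate 1 and -0.58 without replicate 3 of that population, and none of these passed. Cd53 encodes a tetraspanin. It was at 15.1, 7.44 and 10.1 in CD24negTomato+ against 60.6, 88.8 and 104 in Tomatoneg libraries (log2 fold change -2.87, SE 0.66, adjusted P = 0.0835). In CD24+Tomato+ libraries Cd53 was at 0.82, 0 and 1.93, all under the level of 3 reads, against 65.3, 90.9 and 110 in Tomatoneg libraries. Against the highest of the 3 floors it was at least 30.3-fold lower, and it passed the test (adjusted P = 0.00954).

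Itgb2 encodes the beta 2 integrin chain shared by LFA-1 and Mac-1. It was at 10.9, 11.8 and 15.1 in CD24negTomato+ and 491, 166 and 111 in Tomatoneg libraries, and at 10.7, 3.66 and 5.17 in CD24+Tomato+ against 567, 182 and 125. Itgb2 fell in both populations, by -3.96 (SE 0.69, adjusted P = 0.0445) and -5.08 (SE 0.80, adjusted P = 0.0102). Its highest level was in Tomatoneg replicate 1, the library in which most IEL genes were lowest, and without that library the log2 fold changes were -3.34 and -4.45. Among the partner chains, Itgal of LFA-1 was at 12.03, 30.4 and 32.5 in CD24negTomato+ against 44.0, 103 and 207 (adjusted P = 0.229). Itgam of Mac-1, a gene also used as a macrophage marker, was at 245, 327 and 395 against 412, 508 and 456 in that table (adjusted P = 0.41) and fell by 1.10 on the log2 scale in CD24+Tomato+ cells (adjusted P = 0.0467).

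Levels of different genes were set side by side per kilobase of the longest annotated transcript. In the Tomatoneg libraries of the CD24negTomato+ table the order was Gzma (3922 normalized counts per kilobase), Ccl5 (2046), Gzmb (651), Cd3g (331), Cd3e (152), Cd8a (144), Itgae (101), Itgb2 (86.2), Cd53 (48.6) and Ptprc (30.8). Among themselves the first 5 kept this order in all 3 libraries, but in Tomatoneg replicate 1 Itgb2 (165) lay above Cd3g (129) and Cd3e. From Cd3e downwards neighbours changed places between libraries except Cd8a and Itgae, and the ranges of all neighbours over the 3 libraries overlapped. The effector genes Gzma, Ccl5 and Gzmb thus had higher levels per kilobase than the receptor genes.

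The Tomatoneg libraries did not share the genes evenly. In the CD24negTomato+ table replicate 1 held 7.74% to 23.9% of the summed normalized count of the 3 libraries for Cd3e, Cd3g, Cd8a, Gzma, Gzmb, Itgae, Ccl5 and Cd53, and replicate 2 was the highest library for all of these but Cd53. For Itgb2 replicate 1 held 63.9%, and for Ptprc replicate 3 held 8.94%. Across the 6 libraries of a table, each of the other 8 genes correlated with the mean of the remaining members at r = 0.92 to 0.998, while r was 0.48 and 0.42 for Ptprc and 0.81 and 0.89 for Itgb2. These r values describe 6 libraries that fall into 2 groups, 3 of which are in both tables.

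**Figure D3:**
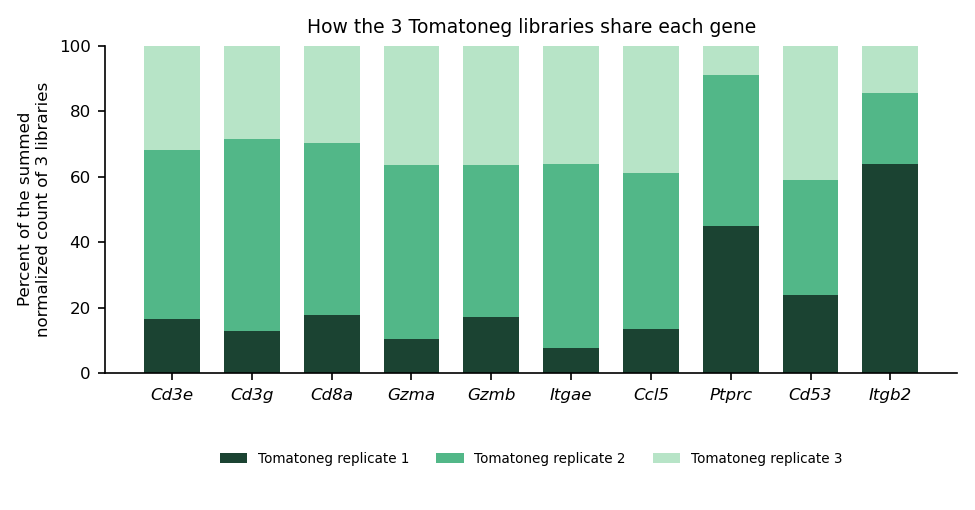
Share of each gene's summed normalized count (percent, vertical axis) held by Tomatoneg replicates 1, 2 and 3 in the CD24negTomato+ table. Replicate 1 has less than 25% for 8 genes, 44.8% for Ptprc and 63.9% for Itgb2.

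The level in Tomato+ cells as a share of that in the same-numbered Tomatoneg library differed by pair, and both sides of this ratio varied between replicates. For Ccl5 in the CD24negTomato+ table, the highest library was 3.88 times the lowest among Tomato+ and 3.56 times among Tomatoneg libraries. In pair 1 CD24negTomato+ cells held 20.5% to 54.5% of the Tomatoneg level, with Itgb2 at 2.22% as the exception. In pair 2 the range was 3.27% to 8.38%, with Ptprc at 30.9% as the exception, and in pair 3 it was 9.63% to 21.5% apart from Ptprc. For CD24+Tomato+ cells the shares of the 7 genes named above were 10.5% to 25.4% in pair 1, 3.05% to 6.32% in pair 2 and 1.98% to 10.6% in pair 3. The highest residual was in pair 1 for most genes, the pair with the lowest Tomatoneg levels.

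Other genes of T cells and leukocytes were described from 5 lists, of which 67 genes beside the members were tested in the CD24negTomato+ table and 68 in the other. In CD24negTomato+ cells 6 were lower and 0 higher, where 0.32% and 0.999% of all genes tested were. With the replicate block 13 were lower and 1 higher, where 2.96% and 4.34% of all genes were. By limma without the block, 38 were lower and 1 higher at an unadjusted P under 0.05, as were 915 and 1377 of all 13420 genes. The CD24+Tomato+ comparison had 21 lower and 1 higher, where 4.89% and 8.02% of all genes were. With the block it had 23 and 4, where 9.95% and 10.8% of all genes were. The median log2 fold change of these other lymphocyte genes was -2.16 and -2.34. Some of them were under a mean of 10 in Tomato+ cells and passed the expression filter only through the Tomatoneg libraries. In CD24+Tomato+ libraries these include Runx3 (3.54, 1.32 and 1.82) and Cd48 (1.65, 2.79 and 0). The counts and medians of these lists are thus partly set by the filter. Without a single library the lower count ranged from 0 to 25 in CD24negTomato+ cells, the highest being without Tomatoneg replicate 1, and from 1 (without CD24+Tomato+ replicate 2) to 39 (without Tomatoneg replicate 1) in CD24+Tomato+ cells. Over all genes tested, the lower count ranged from 1 to 381 and from 30 to 829.

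Of the T cell receptor, coreceptor and proximal signalling genes, all 19 tested had a negative log2 fold change in both tables. Among them Zap70, Trbc1, Cd2 and Cd5 had means of 5.62, 7.02, 1.70 and 2.03 in CD24negTomato+ cells. Such genes reached the expression filter only through the Tomatoneg libraries, so their direction was partly set by the filter. In CD24negTomato+ cells 1 of the 19 passed, Cd7, a surface glycoprotein of T and NK cells, with 149, 67.1 and 83.4 against 873, 1486 and 507. As many as 8 passed in CD24+Tomato+ cells: Cd3d, Trac, Trbc2, Zap70, Lat, Lcp2, Cd6 and Cd7. Trac and Trbc2 are constant segments of the alpha beta receptor. Trac was at 2.89, 3.04 and 0 in CD24+Tomato+ against 23.7, 143 and 177 in Tomatoneg libraries. Trdc, the constant segment of the delta chain, was at 13.9, 8.41 and 2.91 against 44.6, 274 and 64.1, with a log2 fold change of -3.51 that did not pass (adjusted P = 0.0529; 0.0451 with the replicate block). With the block Zap70 passed in CD24negTomato+ cells as well (adjusted P = 0.0454). Zap70, the kinase recruited to the activated receptor, was at 8.26, 3.61 and 2.14 in CD24+Tomato+ libraries against 135, 133 and 90.6 (log2 fold change -4.53, adjusted P = 0.0119). Cd4 was low throughout, at 1.98 to 46.3.

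Cytotoxic and NK-type genes were few above the filter, with 6 of 17 tested. Ctsw, a protease of cytotoxic lymphocytes, fell in both populations (log2 fold change -3.25, adjusted P = 0.0413; and -4.00, adjusted P = 0.0157). Nkg7, Srgn and Cd160 also fell in CD24+Tomato+ cells, by -4.50, -3.69 and -3.56. Cd160, a receptor of IELs and NK cells, was at 25.9, 10.4 and 10.1 in CD24negTomato+ against 139, 200 and 132 in Tomatoneg libraries, and its adjusted P there was 0.0504 (0.0376 with the replicate block, with which Nkg7 also passed there, adjusted P = 0.0434). The NK-type receptor genes Ncr1, Klrb1c, Klrd1 and Klrk1 were low and uneven, listed at 0 in Tomatoneg replicate 1 and at most 23.6, 13.97, 39.9 and 22.0 in the other Tomatoneg libraries of either table. In Tomato+ libraries these 4 genes were at most 2.24, 2.72, 3.08 and 6.93. Klre1 and Ifng were at most 0.98 and 1.43 in any library.

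Pan-leukocyte genes split in CD24+Tomato+ cells. Laptm5, Il2rg and Lsp1 passed as lower among the 17 tested in CD24negTomato+ cells, and Coro1a, Cd52, Cd48, Laptm5, Il2rg and Lsp1 did in CD24+Tomato+ cells. With the replicate block Coro1a, Cd52 and Lcp1 passed as lower in CD24negTomato+ cells too (adjusted P = 0.0228, 0.0389 and 0.0376). Il2rg, the common gamma chain of cytokine receptors, was at 10.01, 4.86 and 4.19 in CD24+Tomato+ against 204, 196 and 155 in Tomatoneg libraries. Vav1, an exchange factor for Rac that blood cells express, went the other way: it was at 1236, 1183 and 1041 in CD24+Tomato+ against 120, 352 and 300 (log2 fold change 2.30, SE 0.43, adjusted P = 0.017). In CD24negTomato+ cells Vav1 was at 67.8, 81.2 and 97.0 against 111, 343 and 286 (log2 fold change -1.44, adjusted P = 0.222). Rac2 was likewise at 1246, 1067 and 1148 in CD24+Tomato+ cells against 54.7, 672 and 885, and this did not pass (adjusted P = 0.262).

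Of homing genes 11 were tested and none passed in either direction in either comparison by limma. At an unadjusted P under 0.05, 3 were lower in each comparison, and 1 was higher in CD24+Tomato+ cells. Itga4, which pairs with Itgb7 in gut homing, was at 507, 220 and 63.7 in CD24+Tomato+ against 82.0, 43.1 and 17.7 in Tomatoneg libraries (log2 fold change 2.24, adjusted P = 0.156; 0.0306 with the replicate block). Among transcription factors and survival receptors, Il2rb, a receptor chain for IL-2 and IL-15, fell in both populations (-3.04, adjusted P = 0.0494; and -3.90, adjusted P = 0.00795). Runx3, a factor of CD8 T cells, and Ikzf3 fell in CD24+Tomato+ cells (adjusted P = 0.0373 and 0.0475), Runx3 not with the replicate block (adjusted P = 0.0604). Their adjusted P was 0.221 and 0.189 in CD24negTomato+ cells, and no test of the 2 populations against each other was made. Id2 was the most abundant gene of this list at 1772, 1915 and 1442 in CD24negTomato+ against 963, 622 and 487, with a log2 fold change of 1.35 (adjusted P = 0.08; 0.0255 with the replicate block).

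**Figure D4:**
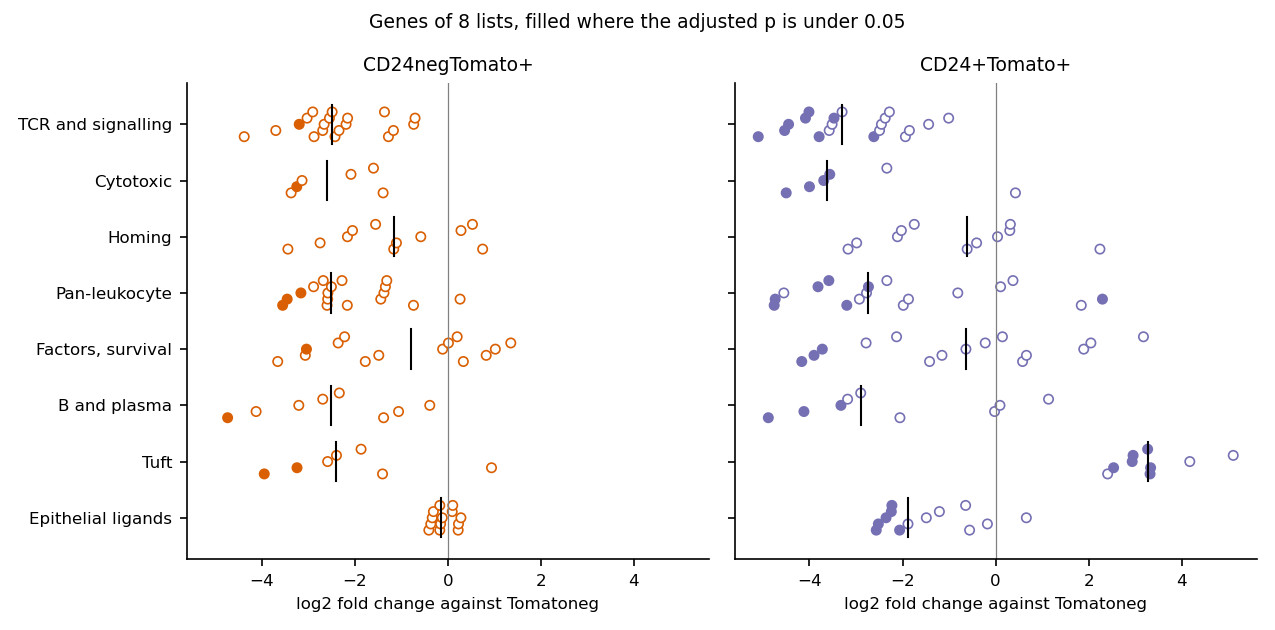
Log2 fold change against Tomatoneg (horizontal axis) of the tested genes of 8 lists in CD24negTomato+ (left) and CD24+Tomato+ cells (right); filled points have an adjusted P under 0.05 and bars are list medians. All T cell receptor and signalling genes lie below 0 in both panels, and the tuft list lies below 0 on the left, except for 1 gene, and above 0 on the right. Some genes low in Tomato+ cells reached the test only through the Tomatoneg libraries.

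Epithelial ligands and partners of IELs passed the test in 1 of the comparisons, and the 2 populations were not tested against each other. None of the 13 genes passed in CD24negTomato+ cells by limma, and none had an unadjusted P under 0.05. In CD24+Tomato+ cells 6 fell: Btnl1, Btnl2, Btnl6, Ccl25, H2-T3 and Il18. Of all genes tested, 0.32% passed as lower in CD24negTomato+ and 4.89% in CD24+Tomato+ cells, so the calling rate differed between the comparisons. Btnl1, a butyrophilin-like protein known to sustain gamma delta IELs, was at 1630, 1133 and 1340 in CD24+Tomato+ against 10237, 6036 and 7563 in Tomatoneg libraries (log2 fold change -2.52, SE 0.26, adjusted P = 0.00318). Ccl25, the ligand of the gut-homing receptor CCR9, was at 2993, 2156 and 2419 against 13581, 10500.0 and 11279.5 (log2 fold change -2.23, SE 0.22, adjusted P = 0.00259). In CD24negTomato+ cells Btnl1 was at 7614, 5666 and 6790 against 9500, 5897 and 7206, and the groups overlapped. Cdh1, which encodes E-cadherin, the ligand of integrin alpha E beta 7, was at 17655 to 24591 in all libraries of both tables and did not pass (adjusted P = 0.853 and 0.686). H2-T3 was highest in Tomatoneg replicate 1, at 12456 against 3479 and 3912 in the other Tomatoneg libraries of the CD24negTomato+ table.

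Markers of other cells that the sort could hold were summed in each library. For the counts below, 0.32% of all genes tested passed as lower and 0.999% as higher in CD24negTomato+ cells. The shares were 4.89% and 8.02% in CD24+Tomato+ cells. With the replicate block they were 2.96% and 4.34%, and 9.95% and 10.8%. Of B cell and plasma cell markers, Ighm fell in CD24negTomato+ cells (1 of 8 tested), and Cd79a, Ighm and Igha in CD24+Tomato+ cells (3 of 9). With the replicate block 4 of the 8 passed as lower in CD24negTomato+ cells, Cd79a and Igha among them (adjusted P = 0.043 and 0.0183). The summed level of the B cell and plasma cell markers was 221 to 645 in CD24negTomato+ against 1078 to 5301 in Tomatoneg libraries, and 276 to 623 in CD24+Tomato+ against 1148 to 5566. Igha, the heavy chain of IgA, was the highest of them at 557, 2883 and 3441 in Tomatoneg libraries, and the B cell factor Pax5 was at most 14.8 in any library. Macrophage and dendritic cell markers summed to 327 to 534 against 464 to 693 and to 270 to 318 against 504 to 762, with Itgam the only one of 5 tested that passed, in CD24+Tomato+ cells (in CD24negTomato+ cells none passed, and none had an unadjusted P under 0.05). The markers Fcgr1, Flt3 and Xcr1 were at most 8.5, 18.0 and 3.38, while others of this list were present. Itgax reached 90.9 and Mpeg1 was 31.5 to 50.4 in Tomatoneg libraries of the CD24negTomato+ table, and Csf1r was at 20.1, 15.7 and 69.6 in CD24negTomato+ against 0, 10.99 and 22.8 in Tomatoneg libraries. Mast cell markers summed to 404 to 582 against 172 to 949, with none passing by limma and 1 of 3 lower at an unadjusted P under 0.05. They summed in CD24+Tomato+ cells to 1359 to 2098 against 186 to 1002, where Kit and Hdc were higher and Mcpt1 lower and the defining genes Fcer1a and Ms4a2 were listed at 0. Fibroblast and endothelial markers summed to 304 to 848 against 289 to 1083 and to 233 to 822 against 309 to 1171, and none passed in either table, with 0 and 2 lower at an unadjusted P under 0.05.

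Tuft cells are epithelial cells that share some signalling genes with leukocytes. Their markers summed to 381 to 432 in CD24negTomato+ against 1267 to 2077 in Tomatoneg libraries, with Pou2f3 and Sh2d6 lower among 7 tested (with the replicate block 5, the others being Dclk1, Trpm5 and Avil at adjusted P = 0.0492, 0.0389 and 0.0389). They summed to 14193 to 17273 in CD24+Tomato+ against 1463 to 2263, with 6 of 9 higher and none lower (7 higher with the block, which adds Ptgs1 at adjusted P = 0.0284). Of all genes tested, 0.32% passed as lower in CD24negTomato+ cells (2.96% with the block). In CD24+Tomato+ cells 8.02% passed as higher (10.8% with the block). General epithelial markers summed to 494317 to 589178 against 409218 to 587692 in the CD24negTomato+ table and 356642 to 454992 against 419450 to 617667 in the other. Krt18 was higher in CD24+Tomato+ cells (adjusted P = 0.009), and 9 of the 10 epithelial genes had a negative log2 fold change there, with Krt19, Krt20 and Vil1 lower with the replicate block (adjusted P = 0.022, 0.0106 and 0.00603). In CD24negTomato+ cells no epithelial marker passed without the block, 2 were higher at an unadjusted P under 0.05, and with it Krt18 and Krt20 were higher (adjusted P = 0.0219 and 0.0249; that of Krt20 was 0.0374 without Tomatoneg replicate 1 and without the block). The part of these other cells in the leukocyte gene values was not tested.

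**Figure D5:**
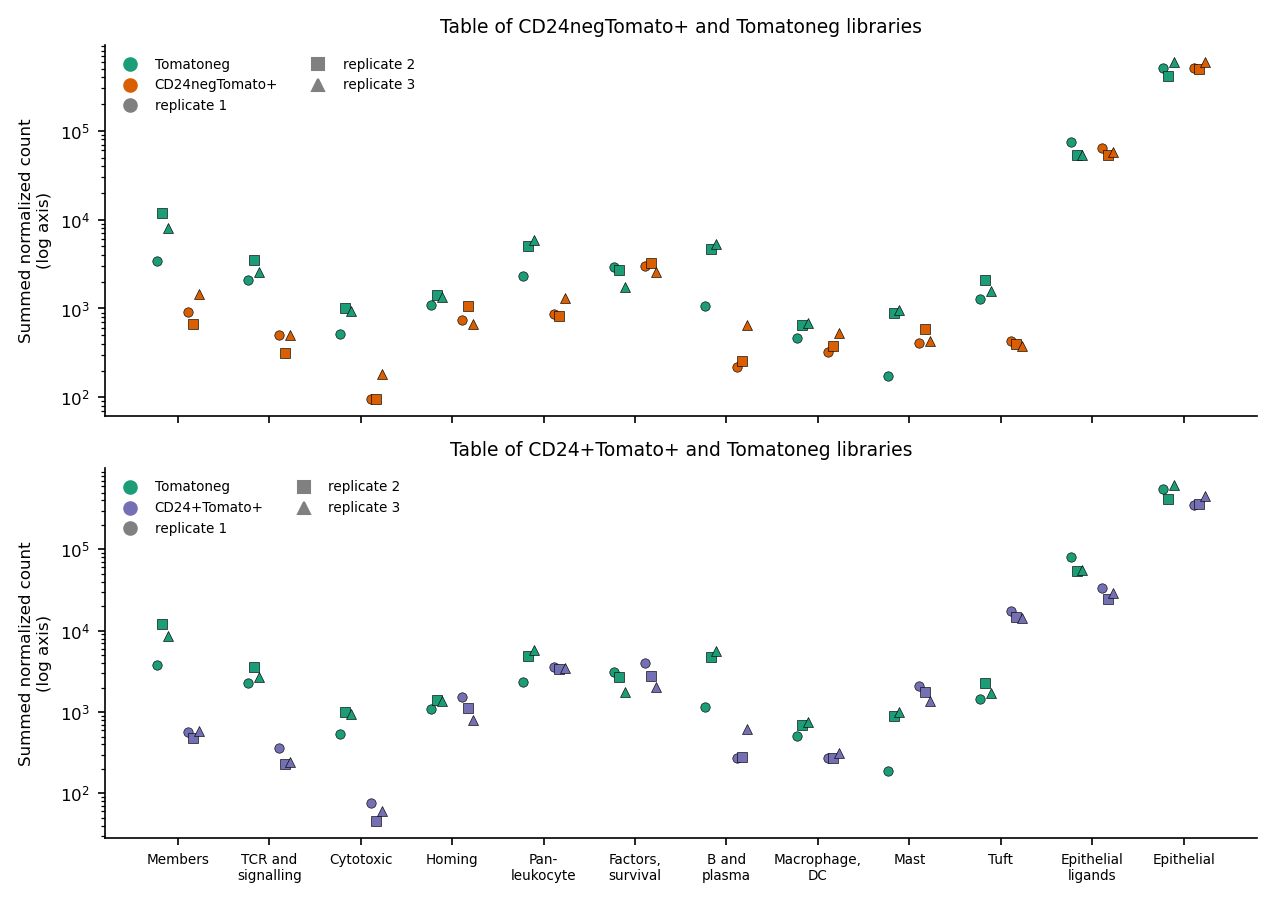
Summed normalized counts (log vertical axis) of the 10 IEL genes, 5 lists of other lymphocyte genes, 4 lists of other cells, and 2 epithelial lists in each library of the CD24negTomato+ (top) and CD24+Tomato+ (bottom) tables. The sums of IEL genes are 663 to 1455 against 3456 to 11872 at the top and 482 to 593 against 3760 to 12171 at the bottom, while the tuft list moves in opposite directions in the 2 tables.

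Among 13229 other genes tested in both tables, those whose profile was most like the mean of the 10 IEL genes were Gimap3, Dtx1, Tyrobp, Msn, Il2rb, Cyfip2, Ctsw and Runx3. The lower of their 2 Pearson r values, each over the 6 libraries of a table, was 0.99 for Gimap3 and 0.97 for Runx3, the first and the eighth. Gimap3 belongs to a family of GTPases of lymphocytes, and it was at 43.3, 25.0 and 34.3 in CD24negTomato+ against 127, 291 and 203 in Tomatoneg libraries, and at 33.3, 19.4 and 19.9 in CD24+Tomato+ against 137, 298 and 213. Tyrobp, an adaptor of activating receptors of NK and myeloid cells, was at 27.0, 16.9 and 31.5 in CD24negTomato+ against 101, 294 and 98.6. Replicate 2 was the highest Tomatoneg library for each of these 8 genes in that table, as it was for most IEL genes. The ranking used these same values, so this is no further sign of likeness. With 6 libraries in 2 groups, and with the Tomatoneg libraries in both tables, such r values describe these libraries alone.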

How the data were processed

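Poly-A RNA of 9 libraries was sequenced by the authors (TruSeq libraries, NovaSeq), with bcl2fastq 2.19, kallisto 0.44.0, sleuth, DESeq2 and GRCm38 named in the submitters' processing notes. The deposited values are a signal made by the authors: estimated gene counts normalized with DESeq2 within each of 2 tables of 6 libraries that share the Tomatoneg libraries. A shared library takes different values in the tables (median ratio 1.08 for replicate 1, 1.02 for replicate 2 and 1.05 for replicate 3, with a spread between genes), so tests were run within a table. Whole reads could not be recovered, as 33.2% to 53.2% of low values were multiples of the most common low value (tolerance 0.02).

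Linear models were fitted by limma 3.58.1 (R 4.3.3; lmFit and eBayes, trend) to log2(normalized count + 1), a scale that understates changes of low genes. Genes whose mean over the 6 libraries of a table reached 10 were tested. Two-sided P values were adjusted over all of these (Benjamini-Hochberg). The replicate numbers of the labels may pair the samples, and they served as a block in alternative fits. Deviations from group means correlated across genes between same-numbered libraries at r = 0.30, 0.29 and 0.34 in the CD24negTomato+ table and 0.28, 0.18 and 0.38 in the other. The main fits have no block and so ignore any pairing. The labels do not say what a number shares. Fits with this block, other pseudocounts, filters and scalings, array weights and single libraries left out were run as alternatives.

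The 10 genes were chosen by symbol, and genes, lists and tests were chosen with earlier results of these data known. From each list of other genes the text names those called, up to 4 of the most abundant and defining markers near 0, with other genes named after their values were seen. The 8 most alike genes were ranked by the lower of 2 Pearson r values. Of 92 lymphocyte genes written down, 4 (Tcrg-C1, Tcrg-C2, Tcrg-C4 and Cd244) were not matched and are not analysed here, and 1 gene of the tuft cell list is not reported here. The scripts were tested on simulated data. Python 3.11.15, numpy 2.4.6, pandas 2.3.3 and matplotlib 3.10.9 were used.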

Additional observations from a re-analysis of the deposited data

Results flagged for a closer look

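No IEL gene was higher in one Tomato+ population and lower in the other. Among genes of the other lists, 14 went opposite ways, in every same-numbered pair of libraries. This difference was not tested, since the tables were scaled separately and share their Tomatoneg libraries. The genes from the lymphocyte lists were Lcp1, with log2 fold changes of -1.37 in CD24negTomato+ and 0.37 in CD24+Tomato+ cells, Vav1 (-1.44 and 2.30), Ptpn22 (0.26 and -1.98) and Prdm1 (1.02 and -1.42). Which cells their RNA came from was not tested. The epithelial genes were Cdh1 (0.10 and -0.18), Btnl4 (0.28 and -1.21), Il18 (0.22 and -2.35) and Krt20 (0.99 and -0.85). Tuft cell markers were Dclk1 (-1.86 and 2.96), Trpm5 (-2.39 and 3.32), Pou2f3 (-3.94 and 2.54), Avil (-1.40 and 2.94), Sh2d6 (-3.24 and 3.33) and Alox5 (-2.58 and 3.27). By limma without the block, only Pou2f3 and Sh2d6 of the 14 passed in both comparisons. Lcp1, Ptpn22, Prdm1, Cdh1, Btnl4 and Krt20 passed in neither. The share of all genes that went opposite ways is not given here, so the count of 14 has no background. Lower in all 3 pairs were 23.6% of all genes tested in the CD24negTomato+ table and 24.1% in the other. Outlying libraries within a group were not tested by Dixon's criterion in groups of 3. In the fit with array weights, Tomatoneg replicate 1 had the lowest weight of its table in both tables (0.19 and 0.13).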

How the results depend on the processing

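Across all alternatives run, the fitted direction of each of the 10 IEL genes was the same in both comparisons, whereas the count that passed moved with the processing in CD24negTomato+ cells. The number of IEL genes lower in CD24negTomato+ cells was 3 as reported, 1 with a pseudocount of 0.1, 5 with a pseudocount of 10, 6 with quantile normalization and 9 with array weights. The other lymphocyte genes lower there, 6 as reported, were 2 and 11 with these pseudocounts, 3 with a mean of at least 1 and 3 without a filter, 17 with quantile normalization and 33 with array weights. The number higher was 0 as reported and 1 with quantile normalization or array weights. Over all genes in this table, 43 lower and 134 higher became 19 lower with the pseudocount of 0.1, 101 and 314 with that of 10, 28 lower without a filter, 190 and 304 with quantile normalization and 702 and 819 with array weights. In CD24+Tomato+ cells 9 IEL genes were lower in each of these alternatives. The other lymphocyte genes lower there were 21 as reported, 13 with the pseudocount of 0.1, 43 with quantile normalization and 44 with array weights, and those higher were 1 as reported, 2 with the pseudocount of 10 and 5 with array weights. Over all genes, 678 lower and 1113 higher became 731 higher with the pseudocount of 0.1, 1036 lower with quantile normalization and 1988 and 2551 with array weights. The median log2 fold change of the IEL genes was -4.97 with quantile normalization there. The estimation of array weights did not converge in this table, where CD24+Tomato+ replicate 2 received a weight of 21.6.

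With the replicate block, the counts lower and higher in CD24negTomato+ cells were 6 and 0 IEL genes, 13 and 1 other lymphocyte genes, and 397 and 582 of all genes. In CD24+Tomato+ cells they were 9 and 0, 23 and 4, and 1381 and 1504. Beside the values given with the results, the block changed no other call of an IEL gene. Leaving out replicate 1 of both groups, chosen after seeing the data, gave 0 IEL genes, 0 other lymphocyte genes and 0 and 0 of all genes in CD24negTomato+ cells (9 IEL genes were lower by limma at an unadjusted P under 0.05), and 32 other lymphocyte genes lower in CD24+Tomato+ cells. With the replicate block as well, the counts were 9 IEL genes, 23 and 1 other lymphocyte genes and 853 and 1092 of all genes in CD24negTomato+ cells, and 41 and 4 other lymphocyte genes and 1535 and 1755 of all genes in CD24+Tomato+ cells.

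Without single libraries, the counts in CD24negTomato+ cells ranged from 0 to 9 IEL genes lower, 0 to 25 and 0 to 1 other lymphocyte genes, and 1 to 381 and 8 to 535 of all genes. In CD24+Tomato+ cells they ranged from 1 to 9 IEL genes lower, 1 to 39 and 0 to 2 other lymphocyte genes, and 30 to 829 and 107 to 1564 of all genes. The highest CD24negTomato+ counts came without Tomatoneg replicate 1, and the cause was not tested.

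Scaling to equal library totals moved the median log2 fold change of all genes from 0.08 to -0.12 in CD24negTomato+ cells, and quantile normalization moved it to -0.05, and from 0.16 to -0.02 in CD24+Tomato+ cells. The share of calls that were higher went from 75.7% to 62.0% and 61.5%, and from 62.1% to 48.9%. Each group had 3 libraries, the Tomatoneg libraries had the least depth, and levels near 3 reads, such as Cd53 in CD24+Tomato+ cells, give bounds only.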
